A study of Homo sapiens with 3 samples.

Results

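ACTB, POLR2A, TBP, PPIA, YWHAZ, HPRT1, GUSB and TFRC are 8 genes whose mRNA is commonly used as the yardstick in expression measurements. Their values were read from the array probes annotated to that symbol alone. All 8 genes were found, on 10 of the 24658 probes with a single gene symbol, and they are 8 of the 18282 genes named that way. YWHAZ and GUSB had 2 probes each and the other genes had 1 each.

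The probes were read in total RNA of SW48, an established line grown from a human colorectal carcinoma, with Cy5 dye on arrays of 1 colour. There were 3 groups of 1 sample: SW48 with a plasmid for DDX3 overexpression and a plasmid for YAP1 knockdown (DDX3+YAPsi), SW48 with the DDX3 plasmid (DDX3), and SW48 with the empty vector pcDNA3.1 (vector). Per the labels' protocols all cells had been under G418 for 4 weeks and were used as stably transduced cells, and every sample held 2 technical replicates whose merging the labels do not describe. No sample carried the knockdown plasmid alone. With 1 sample in each group there is no replicate check on any difference, so nothing was tested and each value below describes these libraries.

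Reference genes are chosen because every cell needs their product, and a measured transcript is then given as its ratio to them. Each of them still belongs to a working pathway. ACTB is cytoplasmic actin, POLR2A is the catalytic subunit of RNA polymerase II, and TBP is the factor that binds TATA elements at the start of transcription. PPIA is cyclophilin A, an enzyme that turns proline bonds during protein folding, and YWHAZ is a 14-3-3 adaptor that holds phosphorylated partners, a family known to keep phosphorylated YAP in the cytoplasm. HPRT1 salvages purine bases, GUSB breaks down glucuronides in lysosomes, and TFRC is the receptor that takes up transferrin-bound iron and whose mRNA is known to be stabilised when iron is low.

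The promoters of 3 members are shown because these genes lay at the edges of the set: POLR2A had the highest difference, PPIA the lowest between the libraries labelled DDX3+YAPsi and vector, and GUSB the lowest between the libraries labelled DDX3 and vector. Each sequence is from RefSeq (GRCh38.p14) and covers 250 bases before to 50 after the annotated start, at chr17:7484116-7484415 on the + strand for POLR2A, chr7:44796431-44796730 on the + strand for PPIA and chr7:65982164-65982463 on the - strand for GUSB. Capitals mark matches on either strand to the TATA element TATAAA, the GC box GGGCGG or the CCAAT element, and no matches of different motifs overlapped.
POLR2A: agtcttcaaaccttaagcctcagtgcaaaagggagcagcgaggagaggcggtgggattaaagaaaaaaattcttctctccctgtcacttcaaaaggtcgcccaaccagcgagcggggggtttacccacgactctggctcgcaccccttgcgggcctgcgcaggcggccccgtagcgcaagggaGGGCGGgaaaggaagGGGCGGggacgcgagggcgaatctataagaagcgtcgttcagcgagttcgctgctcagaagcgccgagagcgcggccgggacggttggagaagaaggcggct
PPIA: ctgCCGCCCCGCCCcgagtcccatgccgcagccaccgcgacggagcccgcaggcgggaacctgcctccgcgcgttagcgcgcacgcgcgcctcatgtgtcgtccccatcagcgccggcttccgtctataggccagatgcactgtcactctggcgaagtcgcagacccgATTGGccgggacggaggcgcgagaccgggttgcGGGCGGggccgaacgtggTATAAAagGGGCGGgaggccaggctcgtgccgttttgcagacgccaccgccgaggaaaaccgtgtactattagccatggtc
GUSB: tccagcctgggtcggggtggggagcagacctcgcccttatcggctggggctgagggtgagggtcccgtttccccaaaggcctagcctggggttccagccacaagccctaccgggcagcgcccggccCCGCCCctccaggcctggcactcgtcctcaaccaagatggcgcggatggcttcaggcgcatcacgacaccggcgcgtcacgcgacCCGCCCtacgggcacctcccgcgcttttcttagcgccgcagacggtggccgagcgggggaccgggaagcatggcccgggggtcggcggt

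The table of promoters held 6 of the 8 genes, all but ACTB and YWHAZ. GGGCGG was found in 6 of these 6 windows, against 45.0% of the 35116 promoters of the same length, and the GC content of the 6 lay between 59.0% and 73.3%. TATAAA was found in 2 of 6, against 11.5% of all promoters, and began 31 bases before the start in PPIA and 33 before it in TFRC. CCAAT was found in PPIA and TBP, against 34.6% of all. The windows of POLR2A and GUSB held GGGCGG matches (2 in each) and neither TATAAA nor CCAAT. These matches describe the letters of the windows and were not set against the expression values.

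The arrays differed in brightness as deposited. The 75th percentile of all 31741 probes was 1710 in the library labelled DDX3+YAPsi, 2495 in that labelled DDX3 and 2856 in the vector library. For the main setting each library was multiplied to a common 75th percentile, by 1.35, 0.922 and 0.806. Without that step every log2 difference would be lower by 0.74 for DDX3+YAPsi against vector, by 0.54 against DDX3, and by 0.20 for DDX3 against vector, so a direction holds only relative to the scaling. The label check did not come out as the plasmids would have it. Scaled DDX3X, the helicase gene, was 6252 in the library labelled DDX3+YAPsi, 7137 in that labelled DDX3 and 9891 in the vector library, and scaled YAP1 was 20768, 20279 and 18298. For DDX3X the log2 differences from vector were -0.47 in the library labelled DDX3 and -0.66 in that labelled DDX3+YAPsi. Whether its probes lie on the insert of the plasmid was not tested, since probe positions were not used here. Of 12 markers of colorectal epithelium 11 had a probe and 8 reached the median of all probes in each library, while VIL1 and TFF3 did so in no library and KRT8 missed it in that labelled DDX3+YAPsi. Of the markers of other cells, 1 of 6 for fibroblasts (COL1A1), 1 of 4 for blood (CD14) and none of 3 for endothelium reached it in each library.

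**Figure D1:**
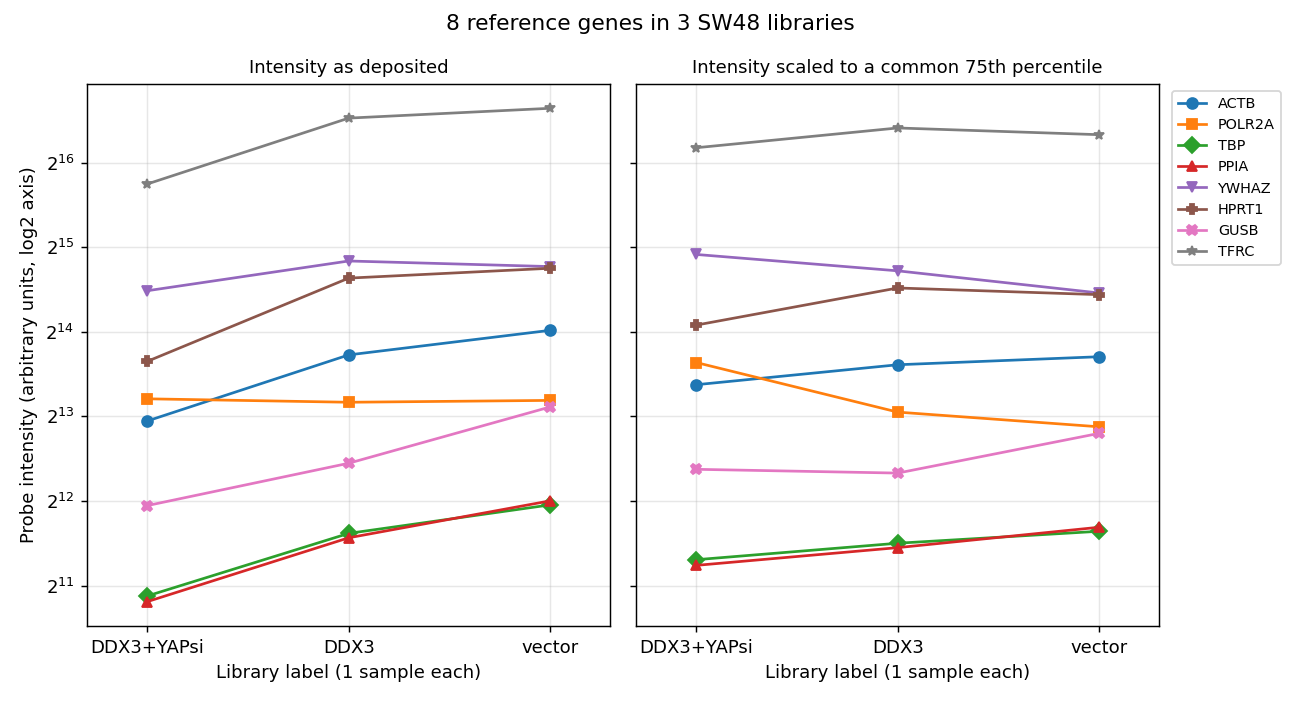
Intensity of the 8 reference genes (log2 axis, arbitrary units) in the libraries labelled DDX3+YAPsi, DDX3 and vector, as deposited on the left and scaled to a common 75th percentile on the right, with 1 point per gene and library (mean log2 of the probes). POLR2A is level as deposited, at 9464, 9200 and 9342, and highest in DDX3+YAPsi once scaled (12735), while 6 of the other 7 are below vector there in both panels; heights of different genes are not comparable, since probes differ in brightness.

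ACTB, the cytoskeletal member, was dimmest in the library labelled DDX3+YAPsi. Its deposited intensity was 7896 in the library labelled DDX3+YAPsi, 13562 in that labelled DDX3 and 16583 in the vector library, and scaled it was 10625, 12510 and 13360. The scaled log2 differences were -0.33 for DDX3+YAPsi against vector, -0.24 against DDX3, and -0.09 for DDX3 against vector. These values rest on a probe annotated to ACTB alone, while a probe annotated to ACTB, LOC644936 and POTEF together was at 0.29 for DDX3+YAPsi against vector. With that probe averaged in, ACTB was at -0.02 for DDX3+YAPsi against vector, -0.12 against DDX3, and 0.10 for DDX3 against vector.

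POLR2A and TBP both serve transcription by RNA polymerase II and moved apart. POLR2A had deposited intensities of 9464 in the library labelled DDX3+YAPsi, 9200 in that labelled DDX3 and 9342 in the vector library, which is level to within 0.04 on the log2 scale. Only 8 of the 9728 genes measured in all 3 libraries had a narrower deposited range. After scaling, which raised the dimmest array and lowered the brighter ones, its intensities were 12735, 8487 and 7526. The scaled difference was 0.76 (1.69-fold higher) for DDX3+YAPsi against vector, 0.59 against DDX3, and 0.17 for DDX3 against vector. It ranked 123 from the highest of 9855 genes in the comparison of DDX3+YAPsi with vector and 236 from the highest of 9834 in that of DDX3+YAPsi with DDX3.

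TBP had deposited intensities of 1883 in the library labelled DDX3+YAPsi, 3143 in that labelled DDX3 and 3968 in the vector library. Scaled, these were 2533, 2899 and 3197. The log2 differences were -0.34 for DDX3+YAPsi against vector, -0.19 against DDX3, and -0.14 for DDX3 against vector, close to those of ACTB in each comparison.

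PPIA, the protein-folding enzyme, had the lowest value of the set for DDX3+YAPsi against vector. Its deposited intensity was 1797 in the library labelled DDX3+YAPsi, 3031 in that labelled DDX3 and 4102 in the vector library, and scaled it was 2418, 2796 and 3304. The differences were -0.45 (1.37-fold lower) for DDX3+YAPsi against vector, -0.21 against DDX3, and -0.24 for DDX3 against vector. PPIA is known for many processed pseudogene copies, and what its probe takes up from them was not tested.

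YWHAZ, the 14-3-3 adaptor, was brightest in the library labelled DDX3+YAPsi after scaling. The dimmer of its probes had scaled intensities of 28371 in the library labelled DDX3+YAPsi, 26177 in that labelled DDX3 and 20338 in the vector library. The brighter had 33607, 27854 and 24958, so both probes gave the same order of libraries. The gene value differed by 0.45 (1.37-fold higher) for DDX3+YAPsi against vector, by 0.19 against DDX3, and by 0.26 for DDX3 against vector. As deposited the differences of DDX3+YAPsi were -0.29 against vector and -0.35 against DDX3, so both turn direction when scaling is left out, and that of DDX3 against vector was 0.07.

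HPRT1, the purine salvage enzyme, was low in the library labelled DDX3+YAPsi alone. Its deposited intensity was 12871 in the library labelled DDX3+YAPsi, 25440 in that labelled DDX3 and 27576 in the vector library, and scaled it was 17319, 23467 and 22216. The differences were -0.36 for DDX3+YAPsi against vector, -0.44 (1.36-fold lower) against DDX3, and 0.08 for DDX3 against vector (-0.12 as deposited). For DDX3+YAPsi against DDX3 this was the lowest value of the set.

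GUSB, the lysosomal enzyme, was high in the vector library alone. The dimmer of its own probes had scaled intensities of 3732 in the library labelled DDX3+YAPsi, 3969 in that labelled DDX3 and 5542 in the vector library. The brighter had 7560, 6683 and 9171, so the vector library was highest on both while the order of the libraries labelled DDX3+YAPsi and DDX3 differed between them. The gene value differed by -0.42 for DDX3+YAPsi against vector, by -0.47 (1.38-fold lower) for DDX3 against vector and by 0.04 between the libraries labelled DDX3+YAPsi and DDX3, where the probes stood at -0.09 and 0.18.

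TFRC, the transferrin receptor, had the smallest scaled range of the set when ACTB was read from its own probe alone. Its deposited intensity was 55030 in the library labelled DDX3+YAPsi, 94367 in that labelled DDX3 and 102271 in the vector library, and scaled it was 74049, 87051 and 82391. The differences were -0.15 for DDX3+YAPsi against vector, -0.23 against DDX3, and 0.08 for DDX3 against vector (-0.12 as deposited). The deposited values of the libraries labelled DDX3 and vector lie above 65535, the most that 16 bits can record, so they are not plain scanner readings, and whether the spot was saturated was not tested. In a bulk sample, fewer cells with a transcript and less of it per cell cannot be told apart for any of these genes.

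Set together, most of the reference genes were on the low side in the comparison of DDX3+YAPsi with vector. Of the 8, 6 lay below 0 and 2 (POLR2A and YWHAZ) above, with a median of -0.33, while 47.8% of the 9855 genes measured in both libraries lay below 0 and their median was 0.02. As deposited, 7 of 8 were below 0, where the median of all measured genes was itself -0.72. POLR2A was the 1 member at least 0.5 (log2) apart, where 10.8% of all genes were that far apart, and no member reached 1, where 0.477% did. At 0.3 the count was 7 of 8, with 5 lower and 2 higher, against 34.0% of all genes. Some of the 5 were close to that threshold. With 11 panel genes (below) made equal ACTB and TBP were at -0.27. ACTB was at -0.02 with its shared probe averaged in, and GUSB at -0.28 on its brightest probe. With array medians made equal ACTB, TBP and GUSB were further out, at -0.45, -0.46 and -0.54. Genes measured over the same span of brightness as the members (4336 genes) had a median of -0.03.

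In the comparison of DDX3 with vector the members were spread evenly about 0. There were 4 above and 4 below, with a median of -0.01, equal to that of all 9863 measured genes (-0.01). No member was 0.5 or more apart, where 6.12% of all genes were, and none reached 1, where 0.335% did. GUSB was the 1 member at or past 0.3, against 23.3% of all genes. That value takes GUSB from its own probes, and with its shared probe averaged in it was at -0.28, under the threshold.

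Between the libraries labelled DDX3+YAPsi and DDX3 the median of the members was -0.20, with 5 below 0 and 3 above, and that of the 9834 measured genes was 0.02. POLR2A was again the 1 member at least 0.5 apart, against 9.45% of all genes, and no member reached 1, against 0.275%. With HPRT1 the count at 0.3 was 2 of 8, against 32.3% of all genes. The comparisons share libraries with each other, so a low value of the library labelled DDX3+YAPsi enters both in which it stands. That library was also the dimmest as deposited, and the part of its brightness in these differences was not tested.

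**Figure D2:**
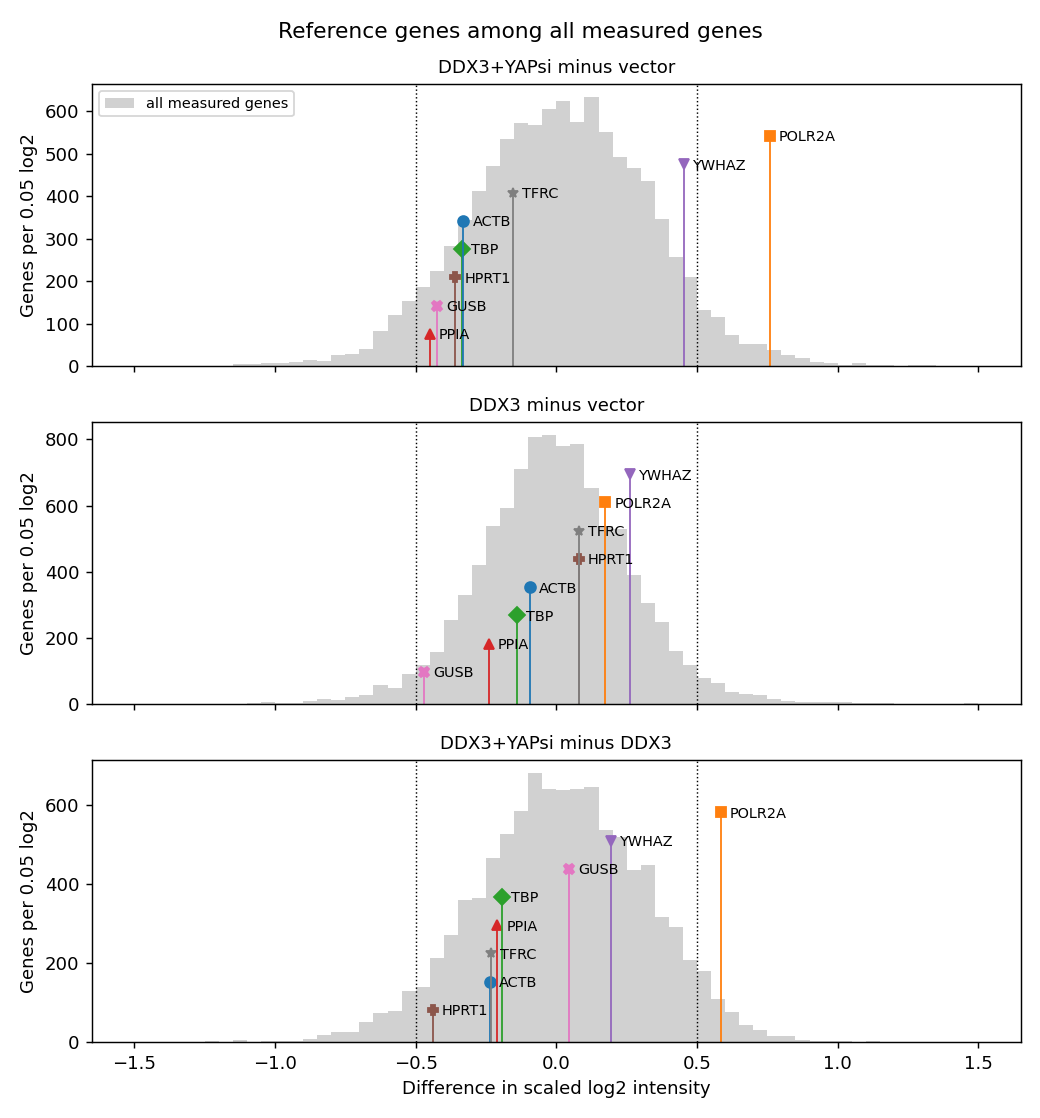
Differences in scaled log2 intensity between libraries (horizontal axis) for all measured genes as grey bars (vertical axis, genes per bin) and for the 8 reference genes as marked lines whose height has no meaning; dotted lines stand at -0.5 and 0.5. POLR2A is past 0.5 in both comparisons of the library labelled DDX3+YAPsi, at 0.76 and 0.59, and the other 7 genes stay within 0.5 of 0 in each panel.

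The range of a gene over the 3 libraries shows how even it was irrespective of the direction. Among the 9728 genes measured in all libraries the median range was 0.32, and 7 of the 8 reference genes were wider than that. TFRC was the exception at 0.23, with 31.2% of all genes narrower. ACTB (0.33) and TBP (0.34) were near the middle of all genes, HPRT1 (0.44), PPIA (0.45), YWHAZ (0.45) and GUSB (0.47) were wider than 72.0% to 76.3% of them, and POLR2A (0.76) was wider than 96.4%. These ranges take ACTB and GUSB from their own probes. With its shared probe averaged in, the largest difference of GUSB between libraries was -0.38 (DDX3+YAPsi against vector). With that of ACTB averaged in, the largest difference of ACTB was -0.12 (DDX3+YAPsi against DDX3). ACTB was then narrower than the median range, and ACTB rather than TFRC was the narrowest of the set.

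A ratio between reference genes does not change with the factor given to an array, so it shows which members parted whatever that factor was. Of the 28 pairs, 14 had a log2 ratio that moved by at least 0.5 over the 3 libraries. POLR2A took part in 6 of these and YWHAZ in 6, and the other 2 were GUSB with TFRC and GUSB with HPRT1, at 0.55 each. The widest pair was POLR2A and PPIA, whose ratio moved by 1.21, a 2.31-fold change of the ratio in DDX3+YAPsi against vector. POLR2A also parted by at least 1 from GUSB (1.18), HPRT1 (1.12), TBP (1.09) and ACTB (1.09). These counts take ACTB and GUSB from their own probes. With the shared probe of ACTB averaged in, its ratio to POLR2A moved by 0.78, under 1, and that to YWHAZ by 0.48, under 0.5. The ratio of ACTB to GUSB, with GUSB from its own probes, then moved by 0.57, past 0.5. GUSB has a shared probe too. With that averaged in, GUSB was at -0.28 for DDX3 against vector, where HPRT1 and TFRC were at 0.08. Its pairs with HPRT1 and TFRC were then under 0.5. With both shared probes in, ACTB was at 0.10 there, and its pair with GUSB was under 0.5 as well.

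Other pairs held their ratio closely. The ratio of ACTB to TBP moved by 0.05 over the 3 libraries, that of PPIA to TBP by 0.11, that of ACTB to PPIA by 0.15 and that of ACTB to TFRC by 0.18. The pairs of ACTB rest on its single probe, and with the shared probe averaged in the ratio of ACTB to TBP moved by 0.31 and that of ACTB to PPIA by 0.43. POLR2A and YWHAZ, both on the high side, moved by 0.39 against each other. Averaged over a gene's pairs with the other 7, the SD of the log2 ratio over the libraries was 0.21 for TBP and ACTB, 0.23 for TFRC, 0.24 for PPIA, 0.27 for HPRT1, 0.31 for GUSB, 0.38 for YWHAZ and 0.52 for POLR2A. This is the quantity by which reference genes are often ranked, and here it describes 3 single libraries. Its order takes ACTB and GUSB from their own probes and was not recomputed with their shared probes. A steady ratio shows that genes moved alike, not that either stayed level: TBP and PPIA were both lower in the library labelled DDX3+YAPsi after scaling.

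**Figure D3:**
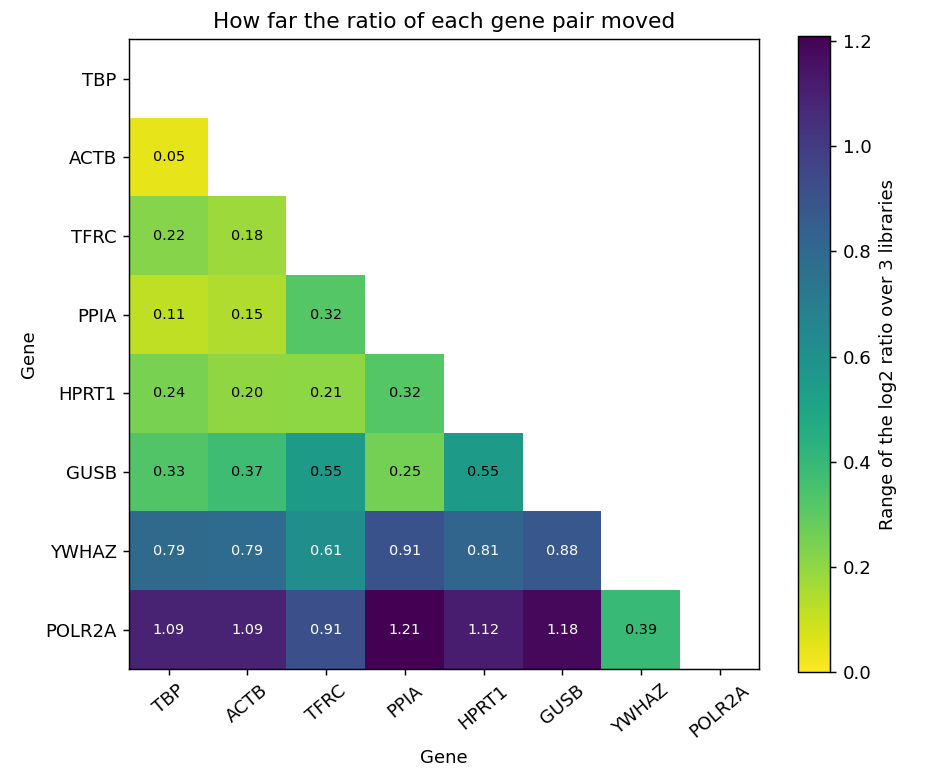
Range over the 3 libraries of the log2 intensity ratio for each of the 28 pairs of reference genes (colour and printed value), with genes on both axes ordered by their mean SD. The bottom rows, YWHAZ and POLR2A, hold the widest ranges, up to 1.21 for POLR2A with PPIA, and the corner of TBP, ACTB, TFRC and PPIA holds the narrowest, down to 0.05. ACTB and GUSB are read from their own probes. The value of 0.05, for ACTB with TBP, was 0.31 with the shared probe of ACTB averaged in.

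How much the choice of yardstick matters was then read from all measured genes. With the 75th percentile as the yardstick, 27 genes lay 2-fold or more above and 20 lay 2-fold or more below the vector library in that labelled DDX3+YAPsi, and with array medians made equal 14 and 44 did. With POLR2A as the only yardstick 2 genes were higher and 2030 lower (20.6% of all measured genes), and the median gene stood at -0.74. With PPIA 419 were higher and 1 lower, and the median gene stood at 0.47. With YWHAZ the counts were 5 and 373, with ACTB 203 and 2, and with TFRC 66 and 4. TBP gave 210 and 2, HPRT1 240 and 1, and GUSB 356 and 1. The mean of the 8 genes gave 47 higher and 7 lower, with the median gene at 0.12.

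For DDX3 against vector the counts moved less with most of the genes. They were 18 higher and 15 lower with the 75th percentile, 11 and 18 with HPRT1 or TFRC, and 30 and 8 with ACTB. With GUSB from its own probes they were 244 and 3, and its shared probe was not used there. For DDX3+YAPsi against DDX3 they were 11 and 16 with the 75th percentile, 9 and 18 with GUSB, 284 and 3 with HPRT1, and 3 and 702 with POLR2A. The mean of the 8 genes gave 15 and 13 for DDX3+YAPsi against DDX3 and 23 and 11 for DDX3 against vector.

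Dividing by a reference gene shifts all genes by 1 offset, the member's own difference, so genes near 0 change sign and the most extreme keep it. SIX2, a homeobox transcription factor, ranked 11 from the highest of 9863 genes for DDX3 against vector and has a single probe, with deposited intensities of 5383 in the library labelled DDX3+YAPsi, 21743 in that labelled DDX3 and 11610 in the vector library. Set against each reference gene in turn, its difference between the libraries labelled DDX3 and vector lay between 0.84 (YWHAZ) and 1.57 (GUSB), that is from 1.79-fold to 2.97-fold higher, and reached 1 with 6 of 8 genes. Its difference between the libraries labelled DDX3+YAPsi and DDX3 lay between -2.05 (POLR2A) and -1.03 (HPRT1), and was past 2-fold lower with 8 of 8. Between the libraries labelled DDX3+YAPsi and vector it lay between -1.13 (POLR2A) and 0.08 (PPIA), below 0 with 6 genes and above 0 with PPIA and GUSB.

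YAP1, the target of the knockdown plasmid, had a scaled difference of 0.03 for DDX3+YAPsi against DDX3, within the span of those offsets, so its sign followed the yardstick. The difference was -0.55 with POLR2A, -0.16 with YWHAZ and -0.01 with GUSB, and lay between 0.23 and 0.47 with the other 5 genes. DDX3X for DDX3 against vector was below 0 with all 8 yardsticks, from -0.73 with YWHAZ to -0.002 with GUSB.

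**Figure D4:**
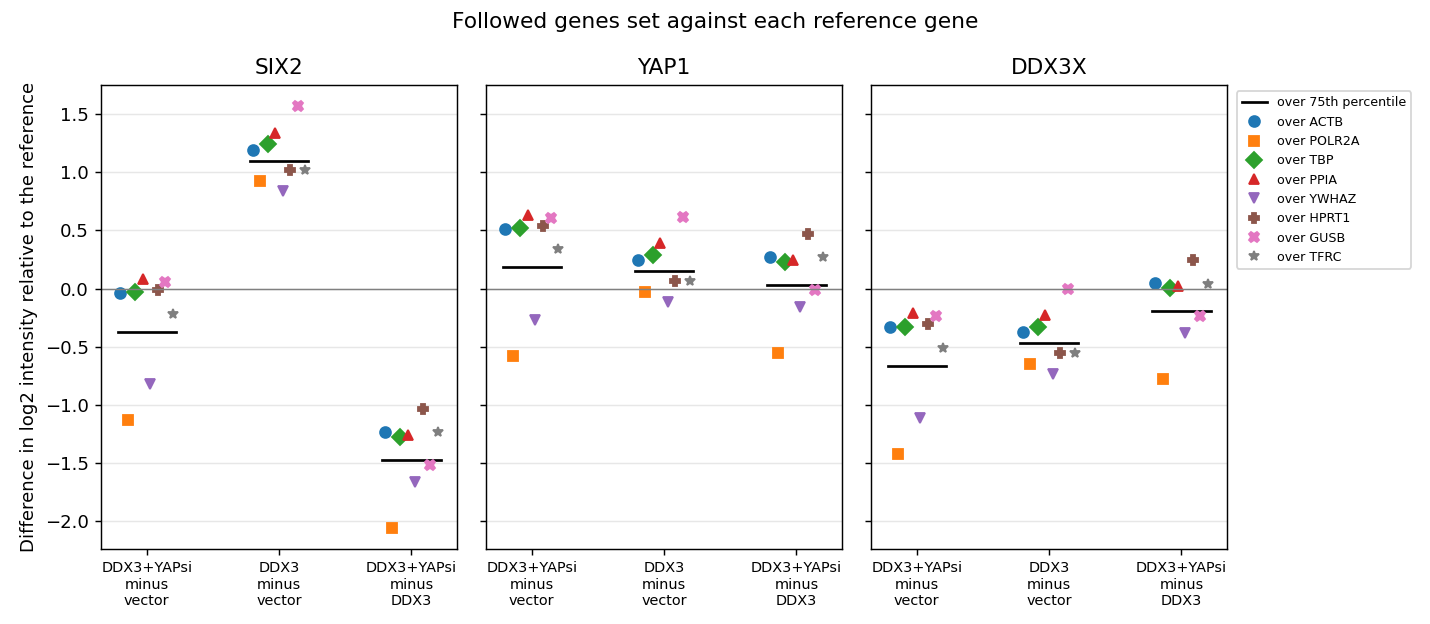
Differences in log2 intensity of SIX2, YAP1 and DDX3X relative to each of the 8 reference genes (symbols) and to the 75th percentile of the array (black bars) in 3 comparisons of libraries, each with 1 sample. The spread of the symbols is the spread of the reference genes' own differences, so it is the same for the 3 genes: 1.21 for DDX3+YAPsi minus vector, 0.73 for DDX3 minus vector and 1.02 for DDX3+YAPsi minus DDX3.

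Other genes in use as references mostly lay on the low side too. Of 16 such genes on a list 11 had a probe of their own and 10 were measured, and for DDX3+YAPsi against vector 10 of 10 were below 0, against 47.8% of all genes, with a median of -0.31 and 2 at least 0.5 apart, against 10.8% of all genes. That count was also 10 of 10 under each other scaling in which scaling was kept, with medians between -0.43 and -0.25. The medians of all measured genes there lay between -0.10 and 0.08. Without scaling the count was 10 of 10 with a median of -1.05, but that step lowers every difference and all genes had a median of -0.72. GAPDH, the glycolytic enzyme, had scaled intensities of 91319 in the library labelled DDX3+YAPsi, 141248 in that labelled DDX3 and 151000 in the vector library, a difference of -0.73 for DDX3+YAPsi against vector and -0.10 for DDX3 against vector. Its deposited values, 67864 in the library labelled DDX3+YAPsi, 153119 in that labelled DDX3 and 187435 in the vector library, all lie above the 16-bit ceiling, as do those of RPL13A, and whether the spots were saturated was not tested. The translation elongation factor EEF1A1 was at -0.63 for DDX3+YAPsi against vector, the ribosomal protein RPL13A at -0.44 and the class I antigen component B2M at -0.34. B2M also lay above that ceiling as deposited in the libraries labelled DDX3 (78678) and vector (90155), and the listed gene PPIB did in all 3. Saturation was not tested for these either. For DDX3 against vector the median was -0.16, with 8 of 10 below 0, against 51.2% of all genes. A panel of 11 genes proposed for evenness across human tissues was all measured and had, for DDX3+YAPsi against vector, a median of 0.005, 6 above 0 and 5 below, no gene 0.5 or more apart, and a span between -0.48 (CHMP2A) and 0.35 (GPI). With array medians made equal 8 of 11 were below 0 in that comparison (median -0.12), where the median of all measured genes was itself -0.10. For DDX3+YAPsi against DDX3 the panel had 9 of 11 below 0 and a median of -0.16, against 47.4% and 0.02 for all genes. With array medians made equal the panel had 11 of 11 and -0.26, where the median of all genes was -0.085. Of the 11 panel genes, 3 had a range over the libraries wider than the median gene.

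The neighbours of ACTB in the actin cytoskeleton mostly lay above 0 after scaling, where the ACTB probe was at -0.33 and the probe it shares with other genes at 0.29. Of 17 listed genes 15 were measured, and 13 of them were above 0 for DDX3+YAPsi against vector, where 47.8% of all genes lay below 0. Their median was 0.30 and 2 were at least 0.5 apart, a share near the 10.8% of all genes. The median was 0.18 with array medians made equal, 0.36 with the panel genes made equal and -0.44 without scaling, where it turned and where that of all genes was -0.72. TLN1, the talin that ties integrins to actin, had scaled intensities of 13806 in the library labelled DDX3+YAPsi, 9604 in that labelled DDX3 and 8004 in the vector library, a difference of 0.79 for DDX3+YAPsi against vector. The crosslinker FLNA was at 0.75 and the actinin ACTN4 at 0.46 in the same comparison. For DDX3+YAPsi against DDX3 the median was 0.17, with 12 of 15 above 0, led by the focal adhesion protein ZYX at 0.76. Of all genes 47.4% lay below 0 in that comparison.

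The other subunits of RNA polymerase II did not move with POLR2A as a group. All 11 were measured, and for DDX3+YAPsi against vector 5 were above 0 and 6 below, with a median of -0.04. POLR2C, a core subunit, had scaled intensities of 10277 in the library labelled DDX3+YAPsi, 11258 in that labelled DDX3 and 18074 in the vector library, a difference of -0.81 for DDX3+YAPsi against vector. POLR2G was at -0.41, POLR2K at -0.38 and POLR2E at 0.34. By pattern over the 3 libraries the gene nearest to POLR2A was NT5DC3, with scaled intensities of 6634, 4365 and 3891 and a distance of 0.013 between their centred log2 profiles. Of 9685 genes compared, 51 lay within 0.1 of POLR2A, and 3 libraries cannot set such genes apart further.

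The 14 genes listed with TBP are 13 TAF subunits of TFIID, the complex that opens transcription at promoters, and the TBP paralogue TBPL1. They had a median of 0.06 for DDX3+YAPsi against vector, with 9 of 14 above 0, where 47.8% of all genes lay below 0. The sign of the median turned with array medians made equal (-0.06, all genes -0.10) and without scaling (-0.68, all genes -0.72). It also turned with loess (-0.02, all genes -0.01) and with quantile normalization. A factor per array moves all genes alike, so it leaves the place of a list among them unchanged. TAF10 (0.62) and TAF4 (0.51) were the genes at least 0.5 apart, 2 of 14 against 10.8% of all genes. Both were on the other side of 0 from TBP. Among the relatives of PPIA, 13 of 15 cyclophilins were measured in this comparison, with 8 below 0, where 47.8% of all genes were, and a median of -0.12. PPIL1 and PPIE, which work in the spliceosome, were at -0.67 and -0.52. Among the other 14-3-3 genes 3 of 6 were above 0 and 3 below, with YWHAE at -0.55 and YWHAH at 0.27, so YWHAZ at 0.45 was above each of them.

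Purine synthesis and salvage genes, the setting of HPRT1, had 7 of 15 above 0 and a median of -0.05 for DDX3+YAPsi against vector. PRPS1, which makes the sugar phosphate that HPRT1 uses, was at -0.53 with scaled intensities near the limit for a measured gene (491, 419 and 710), and IMPDH1, an enzyme of guanine nucleotide synthesis, at 0.49. For DDX3+YAPsi against DDX3, where HPRT1 was lowest, 10 of 15 were below 0, against 47.4% of all genes, with a median of -0.15 and PRPS2 at -0.51. Lysosomal enzymes, the setting of GUSB, had 10 of 13 below 0 for DDX3 against vector, against 51.2% of all genes, with a median of -0.13. Over the scalings that were kept the median lay between -0.20 and -0.13. Without scaling it was -0.33, where that of all genes was itself -0.20. The galactosidase GLB1 was at -0.59 for DDX3 against vector in the main setting. Its scaled intensities were 7128 in the library labelled DDX3+YAPsi, 7205 in that labelled DDX3 and 10811 in the vector library, highest in the vector library as GUSB was.

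Iron genes, the setting of TFRC, held the largest difference of the related lists. ACO1, the aconitase that doubles as an iron-sensing RNA-binding protein and is known to act on TFRC mRNA, had scaled intensities of 4293 in the library labelled DDX3+YAPsi, 7283 in that labelled DDX3 and 8647 in the vector library, a difference of -1.01 for DDX3+YAPsi against vector. The iron exporter SLC40A1 was at -0.81 and the iron-sensing ubiquitin ligase component FBXL5 at -0.60, while HMOX1, which frees iron from haem, was at 0.59. Of the 12 genes, 4 were above 0 and 8 below, where 47.8% of all genes were below, with a median of -0.06, and TFRC itself stood at -0.15. For DDX3+YAPsi against vector the medians of the RNA polymerase II subunits, the other 14-3-3 genes and the purine genes changed sign between scalings that were kept, and those of the cyclophilins and the iron genes did not. Where those scalings differ by a factor per array, such a change moves the 0 and not the place of a list among all genes. Each gene of these lists named here with a difference of 0.7 or more in size rests on 1 probe.

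**Figure D5:**
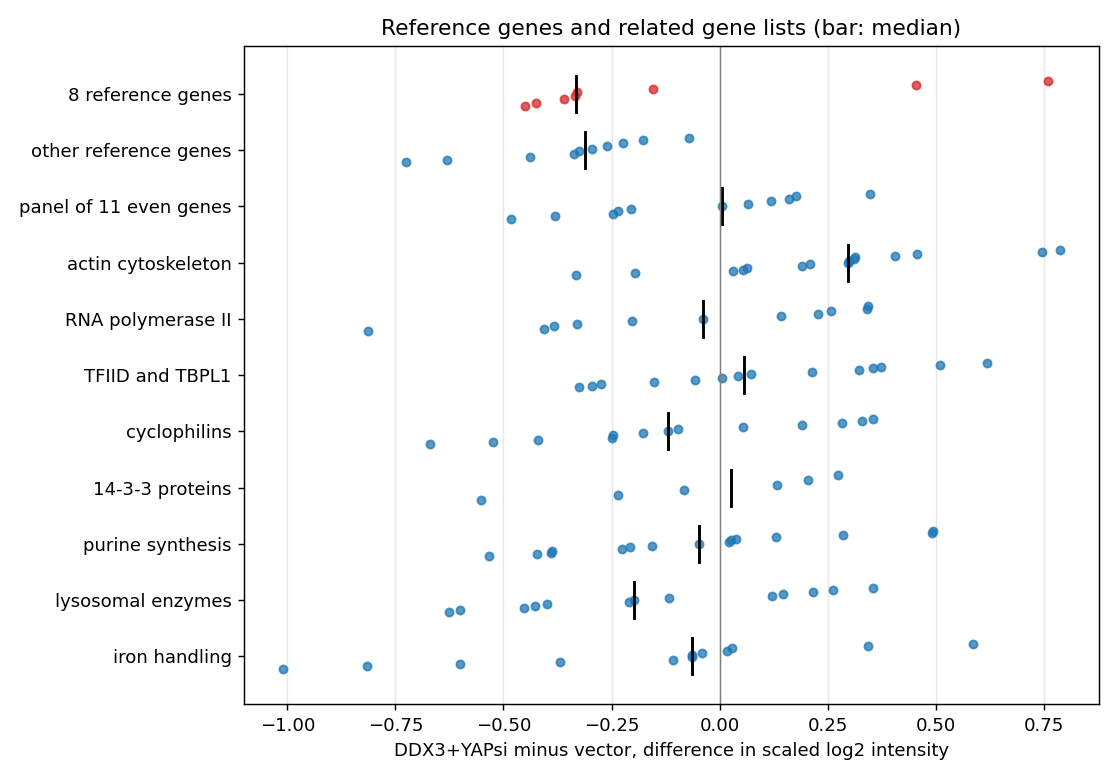
Differences in scaled log2 intensity between the libraries labelled DDX3+YAPsi and vector for the 8 reference genes (red) and for 10 lists of related genes (blue), with 1 point per measured gene and a black bar at each list's median. The reference genes (median -0.33) and the other reference genes (-0.31) lie mostly left of 0, the actin cytoskeleton genes (0.30) mostly right of it.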

How the data were processed

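Total RNA of 3 SW48 samples was hybridised to 1-colour arrays. The authors deposited linear probe intensity, judged from its range, and the sources used here do not give their background correction, scaling or merging of technical replicates. Symbols came from GEO's platform annotation, some of it dated, and 24658 of 31741 probes had a single one. A gene took the mean log2 of its probes.

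Each array was multiplied to a common 75th percentile before log2. A gene counted as measured where both libraries reached the median of all probes (411 for DDX3+YAPsi, 382 for DDX3 and 378 for vector, scaled). Thresholds were log2 differences of 0.3, 0.5 and 1. No test was made, since each group holds 1 sample, and having 3 arrays limits precision. The steps were tested on simulated data.

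The members and the lists of related genes were chosen with earlier results of these data known. All members were named, with up to 3 genes per list and comparison by size of difference, the gene nearest to any member with a range of 0.5 or more, and DDX3X, YAP1 and SIX2. Alternatives were no scaling, equal array medians, quantile and loess normalization, a level set by 11 panel genes, 100 added before log2, the brightest probe, other floors and other thresholds. Including probes shared with other symbols, also in the pairs of ACTB, and the list medians under each scaling were added after seeing the data. Python 3.11.15, numpy 2.4.6, pandas 2.3.3 and statsmodels 0.14.6 were used.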

Additional observations from a re-analysis of the deposited data

Results flagged for a closer look

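A probe annotated to ACTB, LOC644936 and POTEF together lay outside the values of ACTB above, and after scaling its signal in DDX3+YAPsi was above that of the vector control. Its scaled intensities were 254709 in the library labelled DDX3+YAPsi, 254994 in that labelled DDX3 and 209041 in the vector library, a log2 difference of 0.29 for DDX3+YAPsi against vector and 0.29 for DDX3 against vector. The probe of ACTB alone, with 10625, 12510 and 13360, was at -0.33 and -0.09. Deposited values of the shared probe were 189289, 276425 and 259480, above the 16-bit ceiling in each library, and its part in the ACTB signal was not tested. As deposited its difference for DDX3+YAPsi against vector was -0.455, so that direction turns when scaling is left out. A probe shared by GUSB and 6 related symbols, with scaled intensities of 2614, 3442 and 3215, was at -0.30 for DDX3+YAPsi against vector and 0.10 for DDX3 against vector, where the probes of GUSB alone were at -0.48 and -0.46.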

How the results depend on the processing

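Each difference of the 8 genes was recomputed under 10 alternatives, of which both floors cannot move a gene's value and those on probes can move only genes with several or shared probes. In 16 values the move was larger than the robust SD of all measured genes in that comparison (0.32 for DDX3+YAPsi against vector, 0.30 against DDX3, and 0.24 for DDX3 against vector). All 16 came from leaving scaling out, which by its construction lowers every difference alike. Under it the members' median for DDX3+YAPsi was -1.07 against vector and -0.75 against DDX3. The members at least 0.5 apart then numbered 6 in each comparison of DDX3+YAPsi, where 76.1% of all genes (vector) and 53.3% (DDX3) were, and 1 in that of DDX3 with vector, where 12.4% were. With scaling kept, the count for DDX3+YAPsi against vector (1 as reported) was 3 with equal array medians (13.2% of all genes) and 2 with the panel genes made equal (11.6%), and with those made equal it was also 1 in the comparison of DDX3 with vector (6.80% of all genes). At a threshold of 0.3 in the main setting the members counted were 7 in the comparison of DDX3+YAPsi with vector, 2 with DDX3, and 1 in that of DDX3 with vector. At a threshold of 1 there were 0 in each. Over the alternatives other than no scaling POLR2A stayed between 0.64 and 0.82 for DDX3+YAPsi against vector, PPIA between -0.57 and -0.39 and YWHAZ between 0.33 and 0.52. With the shared probe included ACTB was at -0.02 for DDX3+YAPsi against vector and turned to 0.10 for DDX3 against vector, and GUSB ranged between -0.10 and 0.18 for DDX3+YAPsi against DDX3. The widest pair and the bounds of SIX2 moved by less than that SD under each of their alternatives. No paired analysis was possible because each group holds 1 sample and no test was made.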
